A study of Rattus norvegicus with 12 samples.

Results

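PC12 cells, a line from a rat adrenal phaeochromocytoma, were exposed to the neuropeptide PACAP38 for 30 min and set against control cells of the same time point. The comparison rests on 2 of the 12 arrays of the series, chosen by their titles, and it is described here over all genes on them. PACAP38 was given at 1e-07 M. The control is labelled only as control, with no vehicle named, while the label of the other RNA reads PACAP-differentiated. Both groups were grown with fetal bovine and horse serum on type IV collagen, and no source used here says that serum was withdrawn. RNA of n = 6 was pooled for each group, and both pools were hybridized together on Agilent whole rat genome arrays. PACAP38 RNA carried Cy5 on one array, and the dyes were exchanged for the second. The pools did not differ between these arrays, so 30 min is 1 replicate. No test between PACAP38 and control can be made, and the 2 arrays give only the error of dye and spot. The 30 min arrays share a slide with those of 15 min, and the other 4 time points lie on 2 other slides.

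PACAP38 acts mainly on PAC1, a receptor coupled to G proteins and encoded by Adcyap1r1. In chromaffin and PC12 cells this receptor raises cyclic AMP, which activates protein kinase A and the transcription factor CREB, and it also feeds the ERK branch of the MAP kinases. Both routes are known to switch on immediate early genes, which need no new protein for their transcription and many of which encode transcription factors or brakes on the signal itself.

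The deposited signals carry the markers of the line. Of 14 chromaffin markers 12 were measured, among them Th (tyrosine hydroxylase) and Chga (chromogranin A), and all 12 were well above background in this comparison, a flag that the scanner software sets per spot and channel. None of these 12 was counted as changed. Their log2 folds ran from -0.33 to 0.66 with a median of 0.01. None of the 5 adrenal cortex and 3 endothelial markers was well above background on both arrays in either RNA, against 1 of 5 glial, 3 of 5 fibroblast (Col1a1, Col1a2, Pdgfra) and 1 of 3 macrophage markers (Cd68). None of these was counted either. The message of the receptor itself was present at near equal levels: the brightest Adcyap1r1 probe had processed signals of 7410 and 9602 in PACAP38 RNA and 8583 and 8394 in control RNA, on the arrays with PACAP38 in Cy5 and in Cy3, which overlap.

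A probe was counted as higher with PACAP38 when its signal was at least 2-fold that of the control with a spot p-value below 0.01 on both arrays, and as lower when it was at most 0.5 of the control under the same p-value limit. By this rule 102 of 41005 probes were higher (0.249% of the probes compared) and 42 were lower (0.102%). On the log2 scale the median fold was 2.02 for the higher probes, -1.62 for the lower and 0.03 for all. With each probe whose dim RNA allows only a bound (explained below) set to that bound, the medians were 1.97 and -1.28. Among the counted probes with both RNAs well above background on both arrays, 77 higher and 16 lower, the folds were at least 4-fold for 34 and 1, at least 8-fold for 17 and 0 and at least 16-fold for 11 and 0. The higher probes carried 61 gene names on 71 probes, while only 8 of the lower probes had a gene name. The spot p-value comes from the scanner software's error model of single spots and is no test between conditions.

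The swapped arrays set the error. Over the 15294 probes with both RNAs well above background on both arrays, the middle 90% of log2 folds ran from -0.22 to 0.24, and the distance of each array from the mean of both had a median of 0.10 and a 95th percentile of 0.37. Across these probes, which share the same pools, the arrays correlated with r = 0.30, and across those not counted with r = -0.13. On the array with PACAP38 in Cy5 alone 617 probes passed both limits, and on the one with PACAP38 in Cy3 alone 644. A further 132 probes passed both limits on both arrays but in opposite directions, nearly as many as the 144 counted, and none of them entered the counts. Background correction by normexp, which adds an offset of 50 to each signal, was tried in place of the processed signals. With loess it gave 50 higher probes (49 of the 102 and 1 gained) and 2 lower ones (96.15% higher, against 70.83%). With median centring it gave 41 and 2 (95.35%). All 102 higher and all 42 lower probes kept their direction under both, but the sizes shrank. The median log2 fold of the higher probes was 1.06 with normexp and loess, against 2.02, and that of the lower probes -0.27, against -1.62. Of the 65 genes counted on their brightest probe 34 had a fold smaller by over 1.5 times with loess, among them Fos (log2 fold of 3.25, against 4.41), Egr4 (2.81, against 4.58), Atf3 (2.05, against 3.92) and Dusp1 (1.94, against 3.61). It fell furthest in genes with a dim control RNA, such as Nr4a3 (1.60, against 5.76), Egr3 (0.97, against 5.48), Rgs2 (0.84, against 4.79), Maff (0.18, against 2.90) and Rasd1 (0.34, against 2.26). The folds below are those of the processed signals. The list members described below that were no longer counted with loess were Egr3, Rgs2, Fosl2, Maff, Cebpb, Nfil3, Tob1, Zfp36l2, Dusp5, Plk2, Dyrk3, Rasd1, Rasl11a and Klf11. Of these Zfp36l2 (log2 fold of 1.09 with loess, against 1.05) and Dusp5 (1.13, against 1.22) changed little in size, and Dusp5 was still counted with median centring.

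**Figure D1:**
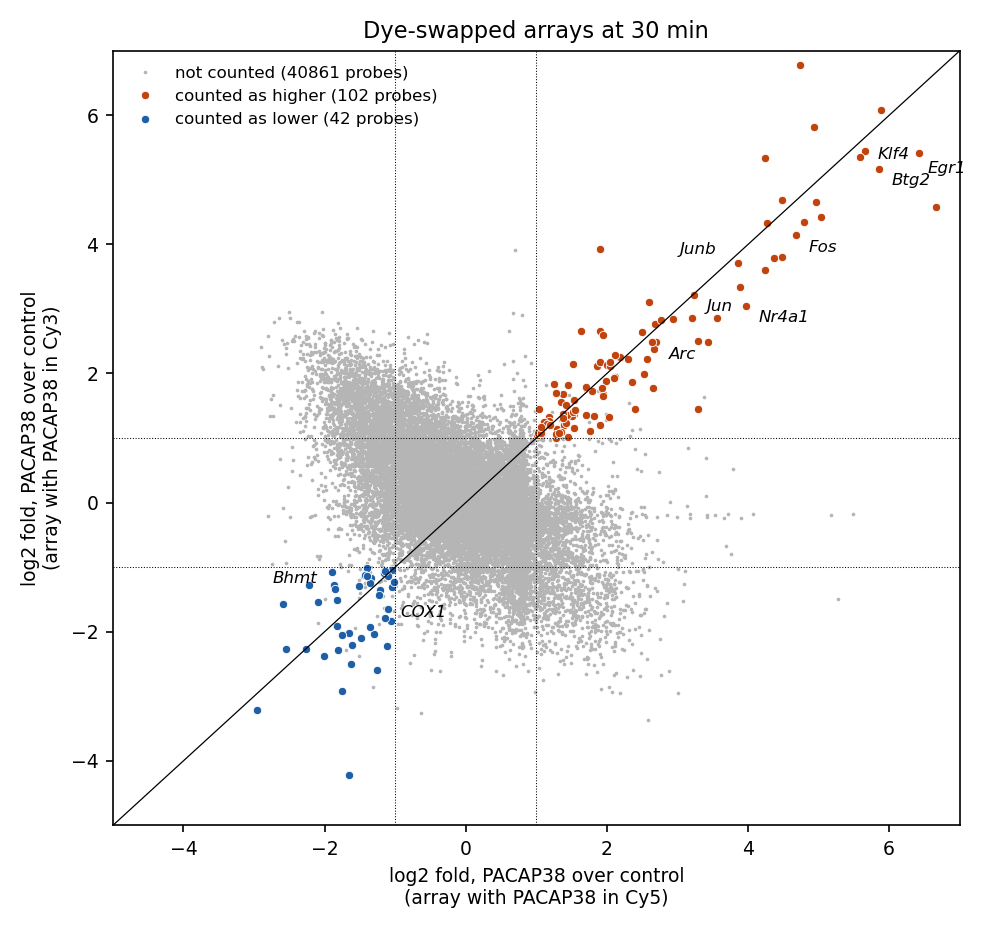
Each of 41005 probes is placed by its log2 fold of PACAP38 over control on the array with PACAP38 in Cy5 (x axis) and in Cy3 (y axis). The 102 counted as higher lie in the upper right and the 42 counted as lower in the lower left. With both RNAs well above background on both arrays, mean log2 folds reach 5.92 among the higher probes and -2.41 among the lower, points beyond these rest on a dim RNA, and the probes not counted (grey) spread along the opposite diagonal.

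The higher and lower probes differed in which RNA was bright enough to measure. All 102 higher probes were well above background in PACAP38 RNA on both arrays, and their control RNA was so on both arrays for 77, on 1 array for 6 and on neither for 19. All 42 lower probes were well above background in control RNA, but their PACAP38 RNA was so on both arrays for 16, on 1 for 3 and on neither for 23. The rule sets part of this, since a dim RNA cannot pass it as the higher one. Median processed signals were 812.8 with PACAP38 and 170.5 in the control for the higher probes, 29.43 and 102.4 for the lower, and 16.71 and 17.40 for all probes. No counted probe was saturated. A fold with a dim RNA on both arrays is given below as a bound ("at least"), from the mean of the bright RNA and a floor for the dim one, which per array is the dimmest signal still flagged well above background or, where higher, what the dim probe itself read, all on signals scaled per channel by loess and Aquantile. Such a bound holds for these signals only, and with normexp several folds lay below it. In RNA pooled from whole cultures, more responding cells and more RNA per cell cannot be told apart.

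**Figure D2:**
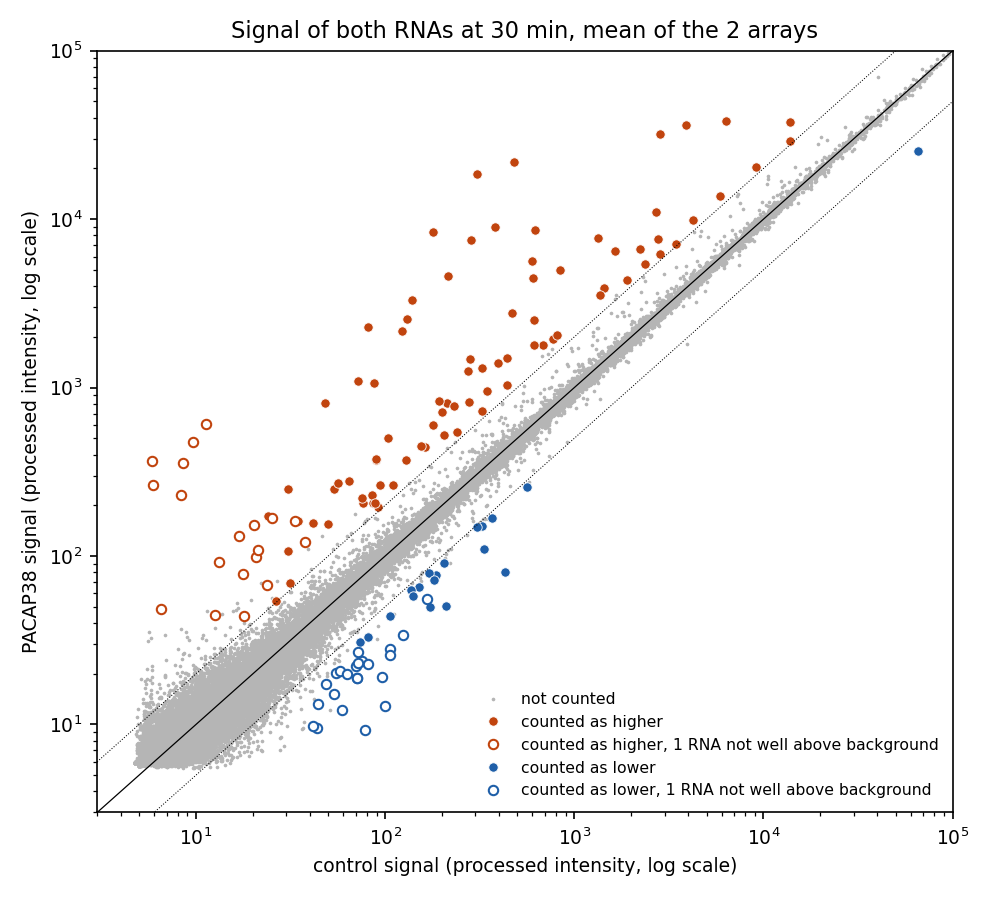
Processed signal of each probe in control RNA (x axis) and PACAP38 RNA (y axis), both on log scales and averaged over the 2 arrays. Open circles are counted probes with a dim RNA, not well above background on either array, which were 19 of the 102 higher probes and 23 of the 42 lower ones.

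The Egr factors, zinc finger activators that growth factors and neuropeptides are known to induce, held the largest measured fold. Of 6 measured Egr and Nab genes 3 were higher and 0 lower. By the brightest probe of each gene, the basis of this and the following list counts, 59 of all 18430 gene names were higher (0.32%) and 6 lower (0.0326%), and of the 9225 well above background 0.64% were higher and 0.065% lower. Egr1 had signals of 19310 and 17660 in PACAP38 RNA (Cy5 and Cy3 array in this order, here and for the genes that follow) against 225.3 and 411.4 in control RNA. The groups did not overlap, which the 2-fold limit on both arrays makes likely for any counted gene, here and below. Egr1, at 60.7-fold (85.7 and 42.9), was the largest fold of a named gene with both RNAs well above background. Egr4 had 2734 and 3995 against 122.7 and 155.0, which is 24.0-fold (22.3 and 25.8). Egr3 stood at 254.8 and 271.3 against a control that was not well above background, which makes it at least 13.9-fold higher in these signals, while with normexp the Egr3 log2 fold was 0.97 (loess) and 0.96 (median centring), and Egr3 was not counted. A second Egr3 probe was dim in both RNAs. The brightest probes of Egr2 and of Nab2, a corepressor of Egr factors, were not well above background, and Nab1, the related corepressor, had a log2 fold of -0.07 (-0.08 and -0.05).

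All 3 Nr4a genes, orphan nuclear receptors that act without a known hormone, were higher. Nr4a2 (Nurr1), a regulator of tyrosine hydroxylase, had 6923 and 8261 with PACAP38 against 210.6 and 385.9, a fold of 26.5 (32.9 and 21.4). Nr4a1 (Nur77) had 31090 and 33350 against 1983 and 4022, a fold of 11.4 (15.7 and 8.29). On the brightest of the 3 Nr4a3 probes (517.7 and 710.9 with PACAP38) the control RNA was dim, so the fold was at least 27.8, and on the remaining probes at least 18.6 and at least 19.4. With normexp the brightest Nr4a3 probe was still counted, but its log2 fold was 1.60 with loess and 1.58 with median centring, below that bound. Every PACAP38 value of the family lay above every control value of the same probe, which the counting rule makes likely.

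AP-1 is a dimer of Fos and Jun proteins, and 5 of its 10 listed subunits were higher and 0 lower. The median log2 fold of all 10, the dim Batf and Batf3 included, was 1.48, against 0.03 over all probes. Fos had 4525 and 4658 with PACAP38 against 176.6 and 263.4, a fold of 21.3 (25.6 and 17.7). Junb followed with 8006 and 9185 against 551.1 and 697.4 (13.8-fold) and Jun with 5476 and 5797 against 580.2 and 621.5 (9.38-fold, 9.44 and 9.33). The Fos-related antigens were next, Fosl1 at 5.25-fold (5.92 and 4.65) and Fosl2 at 4.66-fold (4.53 and 4.79). In each of the 5 the lower PACAP38 value exceeded the higher control value, which the counting rule makes likely. Fosb, whose log2 folds were 1.08 and 0.40, passed the fold limit on 1 array only, and Jund, known as the more constant Jun protein, had 0.52 on both arrays. Jdp2, which represses AP-1 sites, had 0.06, and Batf and Batf3 were not well above background.

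The Krueppel-like factors were the list with a member in each direction. Klf4, a zinc finger factor best known from reprogramming, had 7567 and 9362 with PACAP38 against 150 and 214.3, a fold of 47.0 (50.5 and 43.7). Klf11, a repressor induced by TGF-beta, was lower, with 70.59 and 89.28 against 155.8 and 185.8, or 0.467 of the control (0.453 and 0.481). Its normexp log2 fold with loess was -0.20, so Klf11 was not counted under that scaling, and its second probe was dim. The other 10 listed members were not counted: Klf10 had log2 folds of -0.74 and -0.19, Klf9 0.14 and 0.51, Klf5 0.23 and 0.45, and Klf6 -0.14 and -0.05. Over all 12 Krueppel-like factors the median log2 fold was 0.10.

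Of 26 other early regulators of transcription 9 were higher and 0 lower, with a median log2 fold of 0.57 over all 26, of which 7 were dim. Atf3, a stress-induced factor that dimerizes with Jun proteins, had 1063 and 1114 against 56.03 and 91.57 (15.2-fold), and Ier2, a small nuclear protein, had 35340 and 36730 against 2983 and 5051 (9.28-fold). Maff, a small Maf protein, was at least 2.47-fold higher. Csrnp1, a nuclear protein first described as induced by Axin, was 5.93-fold higher (6.24 and 5.63) and 4.33-fold on its second probe. Crem, whose short product ICER represses cyclic AMP response elements, was higher on 3 probes, 3.51-fold, 3.84-fold and at least 5.91-fold. Cebpb (2.75-fold), Cited2 (2.74-fold, a co-regulator binding CBP and p300), Nfil3 (2.54-fold, a repressor of the clock output) and Id3 (2.10-fold, an inhibitor of helix-loop-helix factors) were nearer the limit. The other probes of Cited2 (log2 folds of 0.94 and 1.03) and of Id3 (0.92 and 0.94) were not counted. The clock gene Per1 had log2 folds of 1.41 and 0.47, Ier3 0.83 on both arrays, Id2 0.72 and 0.55, and Srf, the factor that binds CArG boxes, 0.04 and -0.01. Myc was not well above background.

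Factors that shorten the life of mRNAs were also among the higher genes, 3 of 8 listed. Btg2, a partner of the CCR4-NOT deadenylase, had 19410 and 24920 with PACAP38 against 333.8 and 691.2, a fold of 45.8 (58.1 and 36.0). Tob1, of the same family, was at least 2.33-fold higher in these signals, but its log2 fold with normexp and loess was 0.21, below that bound. Zfp36l2, which binds AU-rich elements, was 2.07-fold higher with 2.03 and 2.11 on the arrays. Btg1 stayed just short of the limit with 1.95- and 1.74-fold, Btg3 had 0.729 and 1.06 of the control, and Zfp36 was not well above background.

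Among feedback genes of the MAP kinases, 2 of 16 measured were higher. Dusp1 (1074 and 1057 against 72.77 and 104.1, 12.2-fold) encodes a phosphatase that inactivates ERK, p38 and JNK in the nucleus, and Dusp5 (9401 and 10280 against 3825 and 4666, 2.33-fold) one that acts on ERK. Errfi1, an inhibitor of the EGF receptor, had log2 folds of 0.63 and 0.93 and was not counted, and Dusp6, the cytoplasmic ERK phosphatase, had 0.58 and 0.03. Dusp4, Dusp7, Spry1, Spry2, Spry4 and Spred2 were not well above background. Of 15 genes of G protein and cyclic AMP feedback only Rgs2 was counted. Rgs2 speeds the turn-off of Gq, and it was at least 12-fold higher, with 227.8 and 232.0 in PACAP38 RNA, but the Rgs2 log2 fold was 0.84 with normexp and either loess or median centring, where it was not counted. Rgs4, a relative, had a log2 fold of 0.08, Pde4d 0.25 and Pde10a -0.44 (both phosphodiesterases), and 10 of the 15, among them the genes of PACAP, VIP and the VPAC receptors, were not well above background.

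Inducible kinases held 3 higher members of 9, and a median log2 fold of 1.04 over all 9. Plk2, a polo-like kinase of activated neurons, was 4.84-fold higher (468.6 and 535.1 against 121.2 and 88.23), and Sik1, a salt-inducible kinase that restrains CREB coactivators, 3.98-fold (5031 and 8421 against 1384 and 1936). Dyrk3 was 2.68-fold higher (2.84 and 2.53). Pim3, Trib1 and Plk3 lay at the limit: each passed 2-fold on 1 array, with 2.42 and 1.86, 1.96 and 2.17, and 2.01 and 1.69. The kinase Sgk1 had log2 folds of 0.25 and -0.59, which point in opposite directions. Of 12 measured small GTPases 2 were higher, Rasd1 (at least 4.75-fold), a Ras-like protein induced by glucocorticoids, and Rasl11a (4.64-fold, control well above background on 1 array). Rhob had 2.63- and 1.62-fold.

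Of 9 neuronal activity genes 1 was counted. Arc, which encodes a protein of dendrites and spines, had 37610 and 38970 with PACAP38 against 5780 and 6975, a fold of 6.03 (6.51 and 5.59). The secreted peptide Vgf had log2 folds of 0.36 and 0.33, the neurofilament genes Nefl and Nefm 0.08 and 0.14 as means of the arrays, and Homer1 0.01. Another Nefl probe had a mean log2 fold of 0.54. Npas4, Bdnf, Ptgs2 and Nptx2 were not well above background in either RNA. Of 6 inhibitors of NF-kappa-B none was counted. Nfkbid had log2 folds of 3.37 and 1.63, but PACAP38 RNA cleared background on 1 of the arrays and the spot p-values did not pass. Of 16 measured secreted factors and proteases 0 were counted, and 12 of them, Inhba and Fst included, were not well above background. Ednrb and Agtr1b, receptors of endothelin and angiotensin, were not well above background either, so no fold is given. Of 10 measured housekeeping genes 0 were counted. Their mean log2 folds ran from -0.02 to 0.80 with a median of 0.04. Actb (beta-actin) had -0.02 and Gapdh, an enzyme of glycolysis, 0.09.

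**Figure D3:**
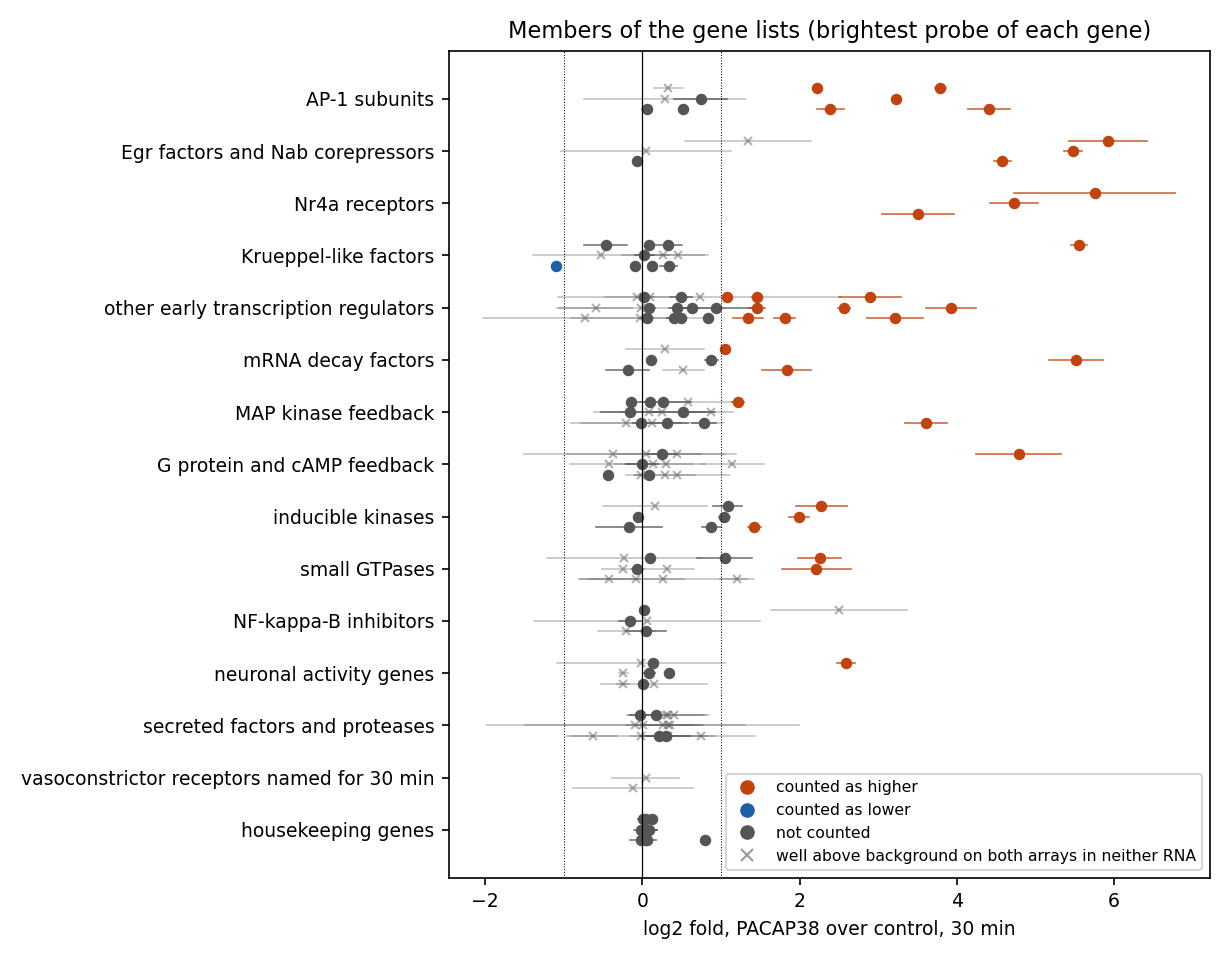
Log2 fold of PACAP38 over control at 30 min for the members of 15 gene lists, 1 point per gene at the mean of both arrays, with a line joining the values of the arrays and dotted lines at 2-fold. All 3 Nr4a receptors, 5 AP-1 subunits and 3 Egr factors were counted as higher, Klf11 is the 1 list member counted as lower, and no housekeeping gene was counted.

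Several higher genes belonged to no list and entered as those with the largest folds, or are named here after their values were seen. Gadd45b, a stress protein that activates MAP3 kinases, was 5.94-fold higher (5.66 and 6.23). Tp53rkb (5.76-fold) encodes a p53-regulating kinase and Trmt10c (4.09- and 4.11-fold on its probes) a subunit of mitochondrial RNase P. Chosen after their values were seen, the ubiquitin ligase gene Siah2 was 3.60-fold higher, Tiparp 3.39-fold (a mono-ADP-ribosyltransferase), Ppp1r15a 2.94-fold (GADD34, a regulator of the eIF2 alpha phosphatase) and Emd 2.73-fold (emerin of the inner nuclear membrane). Syt4, a synaptotagmin of secretory vesicles, was 2.76-, 2.73- and 2.6-fold higher on its 3 probes. The remaining named genes, Or2y11, Hoxb6, Tslp, LOC100911553, Fdxacb1, Ccnl1, Cpt1b, Mat2a, Ifrd1, Coq10b, Midn, Lcmt2, Zfand2a, Ptp4a1, Cwc25, Grin1, Gpd1 and Arrdc3, lay between 2.04- and 3.49-fold on the brightest counted probe, and RGD1560523 was counted with a dim control RNA. With normexp and loess Hoxb6, Cpt1b, Coq10b, Lcmt2 and Ptp4a1 were still counted and the other genes of this group were not, among them Or2y11, whose log2 fold was 0.32, against 1.80, and Midn, whose log2 fold of 1.08, against 1.2, was about as large. Mat2a and Grin1 were counted on a dimmer probe, and their brightest had 1.97-fold and 0.975-fold. The values just inside the limit were 2.42 and 2.01 for Grin1, 2.01 and 2.07 for Arrdc3 and 2.03 and 2.11 for Zfp36l2, and those just outside it 3.35 and 1.98 for a Mat2a probe, 2.6 and 1.98 for Irf2bp2 and 1.98 and 2.15 for Cyp24a1.

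Of the 102 higher probes 31 had no gene name, and 3 of these, chosen after their values were seen, lie side by side. The transcripts ania-5, ania-8 and ania-7 were at least 24.6-fold, 16.9-fold (20.6 and 13.8) and 8.17-fold (9.18 and 7.27) higher. On rat build rn4 their probes lie at chr2:23585359-23585418, chr2:23588603-23588662 and chr2:23621980-23622039, between the probes of Tent2 and Bhmt. In the RefSeq annotation of GRCr8 the genes between Tent2 and Bhmt include Homer1, a scaffold of synapses, and Jmy, a cofactor of actin and p53. The Homer1 probe of the array, which has no position in the files, had signals of 310.0 and 334.8 with PACAP38 and 305.9 and 333.3 in the control, which overlap. Bhmt, a methyltransferase of homocysteine at the other end of this interval, was lower: 92.86 and 131.4 against 333.8 and 332.9, or 0.331 of the control (0.278 and 0.395). Its second probe was dim.

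Lower genes were few, and only 6 were counted on their brightest probe. Besides Klf11 and Bhmt these were COX1, Mfap3, Or5b123b and Serpina5. COX1, the mitochondrially encoded subunit of cytochrome c oxidase, had 28060 and 22900 with PACAP38 against 60220 and 71710, which is 0.386 of the control (0.466 and 0.319) with no overlap. The other 32 mitochondrially encoded probes well above background had log2 folds from -0.22 to 0.20, with a median of -0.10. Mfap3 (a glycoprotein of microfibrils) was at 0.420, with PACAP38 RNA well above background on 1 array. The olfactory receptor gene Or5b123b was at least 2.05-fold lower and Serpina5, a protease inhibitor, at least 2.63-fold lower. With normexp and loess the log2 folds of Mfap3, Or5b123b and Serpina5 were only -0.14, -0.13 and -0.21. Srpk2 and Slc16a6 were counted on a probe other than their brightest. Values just inside the limit were 0.453 and 0.481 for Klf11 and 0.447 and 0.469 for Srpk2, and just outside 0.531 and 0.429 for Zfp217. The smallest ratio with both RNAs well above background on both arrays belonged to a probe for the unnamed transcript BE116623, at 0.188 (0.172 and 0.207). With COX1 it was 1 of the 2 lower probes also counted under normexp with either loess or median centring.

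A pair of neighbouring probes read the NF-kappa-B inhibitor alpha region differently, and they are named after their values were seen. The probe of the transcript TC581959, described in the files as that inhibitor and placed at chr6:75730216-75730275 on rn4, was at least 2.84-fold lower (70.42 and 86.50 in the control). The Nfkbia probe at chr6:75730438-75730497 had log2 folds of -0.01 and -0.30 and was not counted. A Klf4-like case had the same direction on both probes: a probe for a predicted transcript similar to Klf4 was 23.7-fold higher, and since it may share sequence with Klf4 its signal is uncertain. LOC685619 was 2.99-fold higher on its brightest probe and had a log2 fold of -0.17 on the other.

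Promoter sequence was the first property examined that the counting rule did not use. CREB binds the cyclic AMP response element (CRE), whose full form is TGACGTCA and whose half-site is TGACG. The windows of RefSeq on GRCr8 run from 250 bases before to 50 after each annotated start, and 44 of the 59 genes counted as higher on their brightest probe had 47 of them. Fos, Jun, Arc, Atf3, Egr3 and Nr4a3 had no entry. The full CRE stood in 9 of the 47 (19.15%), against 3.136% of 8131 windows of genes measured above background but not counted and 1.829% of all 33469. The half-site, searched on both strands and included in every full CRE, stood in 35 (74.47%), against 33.55% and 21.2%. The sequences below show examples of each kind of match before higher genes of this comparison, 5′ to 3′ on the gene's strand and ending just before the annotated start. Capitals mark the full CRE in the first 5, the half-sites in Nr4a1 and the CArG boxes in Dusp5, and the single half-site of Dusp5, 55 bases before the start, is left in lower case. Those of Dusp1, at chr10:17184703-17184852 (plus strand), Ier2, at chr19:40399223-40399372 (plus), Plk2, at chr2:43702386-43702535 (plus), Crem, at chr17:58985340-58985489 (plus, 1 of its 3 windows), and Btg2, at chr13:48087691-48087940 (minus), show the full CRE, 124, 66, 66, 35 and 201 bases before the start. Nr4a1, at chr7:134259888-134260137 (plus), is shown for 4 half-sites on the opposite strand (CGTCA as printed), and Dusp5, at chr1:262543624-262543773 (plus), for a pair of CArG boxes, the sites of serum response factor.
Dusp1: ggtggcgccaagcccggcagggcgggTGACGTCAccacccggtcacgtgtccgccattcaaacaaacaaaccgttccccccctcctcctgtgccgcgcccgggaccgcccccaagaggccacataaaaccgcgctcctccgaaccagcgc
Ier2: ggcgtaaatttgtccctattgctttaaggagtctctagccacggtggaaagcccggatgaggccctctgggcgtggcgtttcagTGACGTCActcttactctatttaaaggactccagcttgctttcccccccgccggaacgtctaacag
Plk2: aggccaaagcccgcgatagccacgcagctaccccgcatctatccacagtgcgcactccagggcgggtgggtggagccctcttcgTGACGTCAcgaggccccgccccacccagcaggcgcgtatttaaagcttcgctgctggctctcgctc
Crem: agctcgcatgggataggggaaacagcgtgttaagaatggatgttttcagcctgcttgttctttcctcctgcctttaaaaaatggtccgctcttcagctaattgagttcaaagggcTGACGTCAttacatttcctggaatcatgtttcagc
Btg2: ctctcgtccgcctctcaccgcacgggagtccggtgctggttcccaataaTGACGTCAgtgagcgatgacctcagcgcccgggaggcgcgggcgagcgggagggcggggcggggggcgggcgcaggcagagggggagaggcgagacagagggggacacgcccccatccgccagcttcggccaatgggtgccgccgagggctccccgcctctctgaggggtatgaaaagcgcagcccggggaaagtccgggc
Nr4a1: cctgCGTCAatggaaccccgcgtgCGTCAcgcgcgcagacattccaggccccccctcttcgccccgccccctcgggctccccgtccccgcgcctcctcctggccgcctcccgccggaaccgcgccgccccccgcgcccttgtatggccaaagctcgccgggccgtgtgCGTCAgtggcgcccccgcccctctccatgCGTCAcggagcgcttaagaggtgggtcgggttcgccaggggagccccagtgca
Dusp5: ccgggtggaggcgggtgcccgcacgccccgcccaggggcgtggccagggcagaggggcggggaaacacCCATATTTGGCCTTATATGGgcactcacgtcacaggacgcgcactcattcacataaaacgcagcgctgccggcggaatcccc

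The other full CREs were in windows of Maff (51 bases before the start), Ccnl1 (50), Ppp1r15a (66) and a further Crem window (56), and the Crem window printed above in part also held one at base 40 after the start. The 8 genes with a full CRE spanned the range of folds, from Btg2 at 45.8-fold, Dusp1 at 12.2-fold and Ier2 at 9.28-fold to Ppp1r15a at 2.94-fold and Ccnl1 at 2.62-fold. The CArG box stood in 2 of the 47 windows (4.255%), those of Egr1, 105 and 83 bases before the start, and of Dusp5, 82 and 72 bases before it, against 1.058% of windows of uncounted genes above background and 1.637% of all. TATAAA, searched on the gene's strand only, stood in 7 (14.89%), against 4.022% and 8.799%. The 5 windows of lower genes held no CRE, no half-site and no CArG box, and that of Bhmt held TATAAA. These matches are descriptions of letters in a window, with no test.

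**Figure D4:**
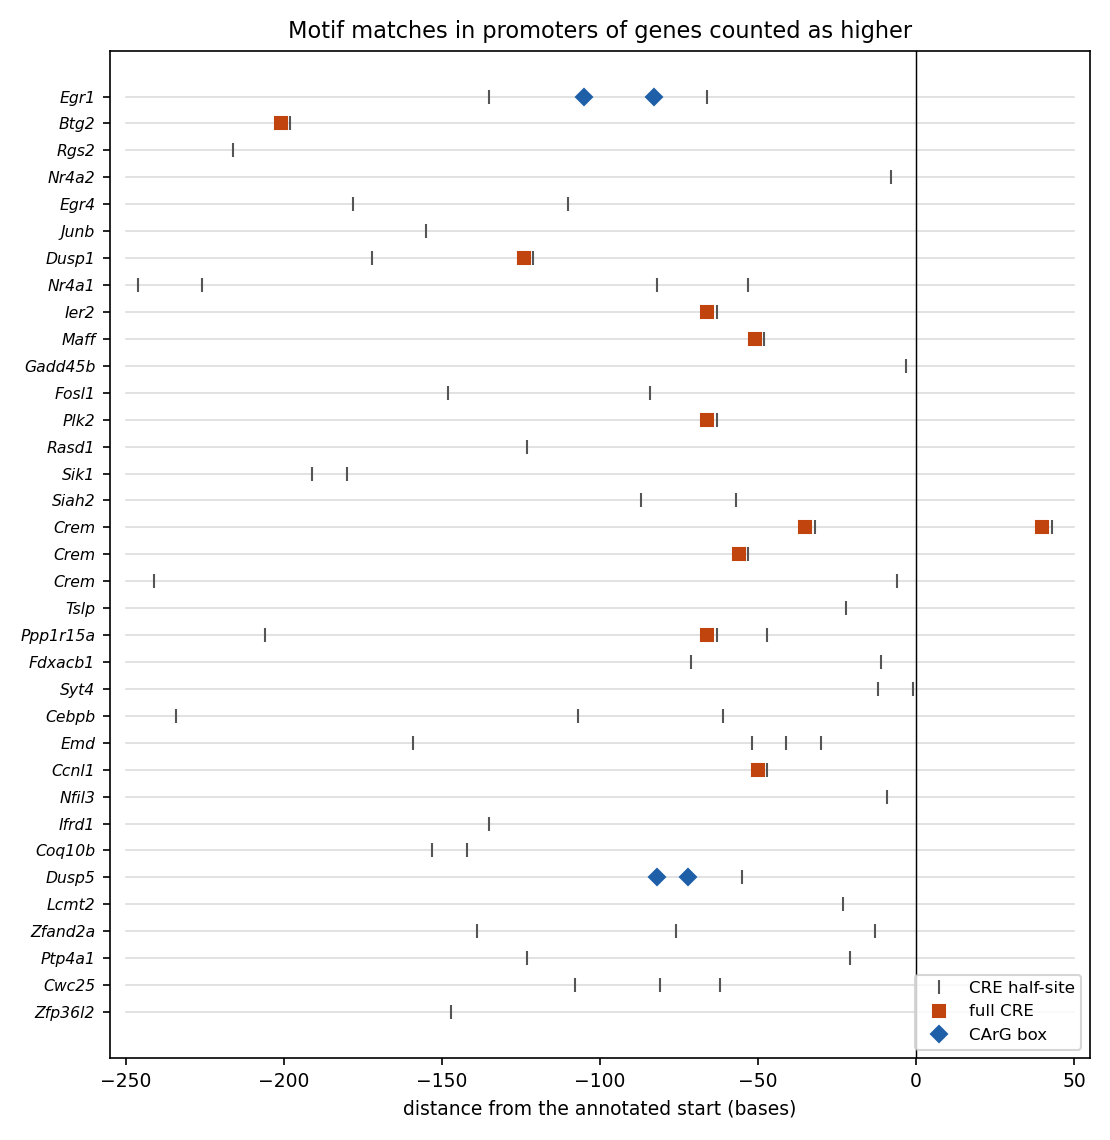
Matches of the full CRE (squares), the CRE half-site (ticks) and the CArG box (diamonds) by distance in bases from the annotated start, 1 row per promoter window of a gene counted as higher that holds a match, with the largest fold at the top. Full CREs lie 35 to 201 bases before the start apart from the one in Crem after it, and only Egr1 and Dusp5 hold CArG boxes.

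Gene length is a further property outside the rule. From start to end in the annotation the 56 of 59 that could be matched spanned a median of 6581 bases, from 936 (Or2y11) to 69150 (Crem), against 22270 bases for the 8887 genes measured above background and 20370 for all 17210 measured. Under 10000 bases were 35 of them (62.5%), against 26.42% of genes above background. The 5 matched lower genes had a median of 15720 bases. Span was compared without a test.

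The place of 30 min in the time course was read from the other 10 arrays, each time point with pools of its own and 1 replicate. Of the 102 higher probes 0 were counted at 5 min, 24 at 10 min (23.53% of the 30 min list and 88.89% of that at 10 min, where 0.0659% of all probes were higher) and 34 at 15 min (33.33% and 91.89%, with 0.0902% of all probes). The later arrays counted 100 of them at 60 min (98.04% and 28.01%, with 0.871% of all probes), and 87 after 120 min (85.29% and 10.89%, with 1.95%). None was counted in the opposite direction at any time. Of the 42 lower probes 7 were also lower at 15 min (16.67%, with 0.0268% of all probes), 23 after 60 min (54.76%, with 0.376%) and again 7 in the arrays of 120 min (16.67%, with 1.53%).

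By gene, 40 of the 59 higher genes were counted for the first time at 30 min, 12 at 10 min (Egr1, Klf4, Btg2, Nr4a2, Fos, Junb, Nr4a1, Jun, Ier2, Arc, Or2y11 and RGD1560523) and 7 at 15 min (Nr4a3, Rgs2, Egr4, Atf3, Dusp1, Gadd45b and Fosl2). Time points were ranked for the 42 of the 59 with both RNAs well above background on both arrays at all 6 of them, since a fold against a dim RNA has no rank. Of these 6 had their largest fold at 30 min: Egr1, Jun, Ier2, Arc, Lcmt2 and Id3. For Id3 the arrays of 30 min (log2 folds of 1.06 and 1.08) and 60 min (0.93 and 1.1) overlapped, so its order is not resolved. The later course of the 6 genes differed. The folds of Jun at 30, 60 and 120 min were 9.38, 4.02 and 1.53, and those of Ier2 9.28, 7.68 and 4.87. Fos, not ranked because it was dim in both RNAs at 5 min, remained near its 30 min fold of 21.3, with 20.4 and 18.2. Of the other ranked genes 14 had the largest fold at 60 min and 22 at 120 min. Sik1 went from 3.98-fold at 30 min to 12.7-fold and 16.9-fold, Syt4 from 2.76-fold to 8.60-fold and 15.8-fold, and Crem from 3.51-fold to 9.88-fold and 14.8-fold. These shifts compare different pools, on different slides except between 15 and 30 min, and were not tested. The 2 higher probes not counted at 60 min were those of Lcmt2, a methyltransferase of transfer RNA, with log2 folds of 0.78 and 0.65 there, and of Id3, with 0.93 and 1.1.

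Of the 6 lower genes only Bhmt and COX1 were well above background in both RNAs on both arrays at all 6 time points. At 30, 60 and 120 min Bhmt was at 0.331, 0.597 and 0.759 of the control, smallest at 30 min. Klf11 was at 0.467 and 0.281 at 30 and 60 min, and at 120 min 1 of the arrays read it as dim with PACAP38. COX1 had 0.386 at 30 min and 0.385 at 60 min, and it was counted at both.

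**Figure D5:**
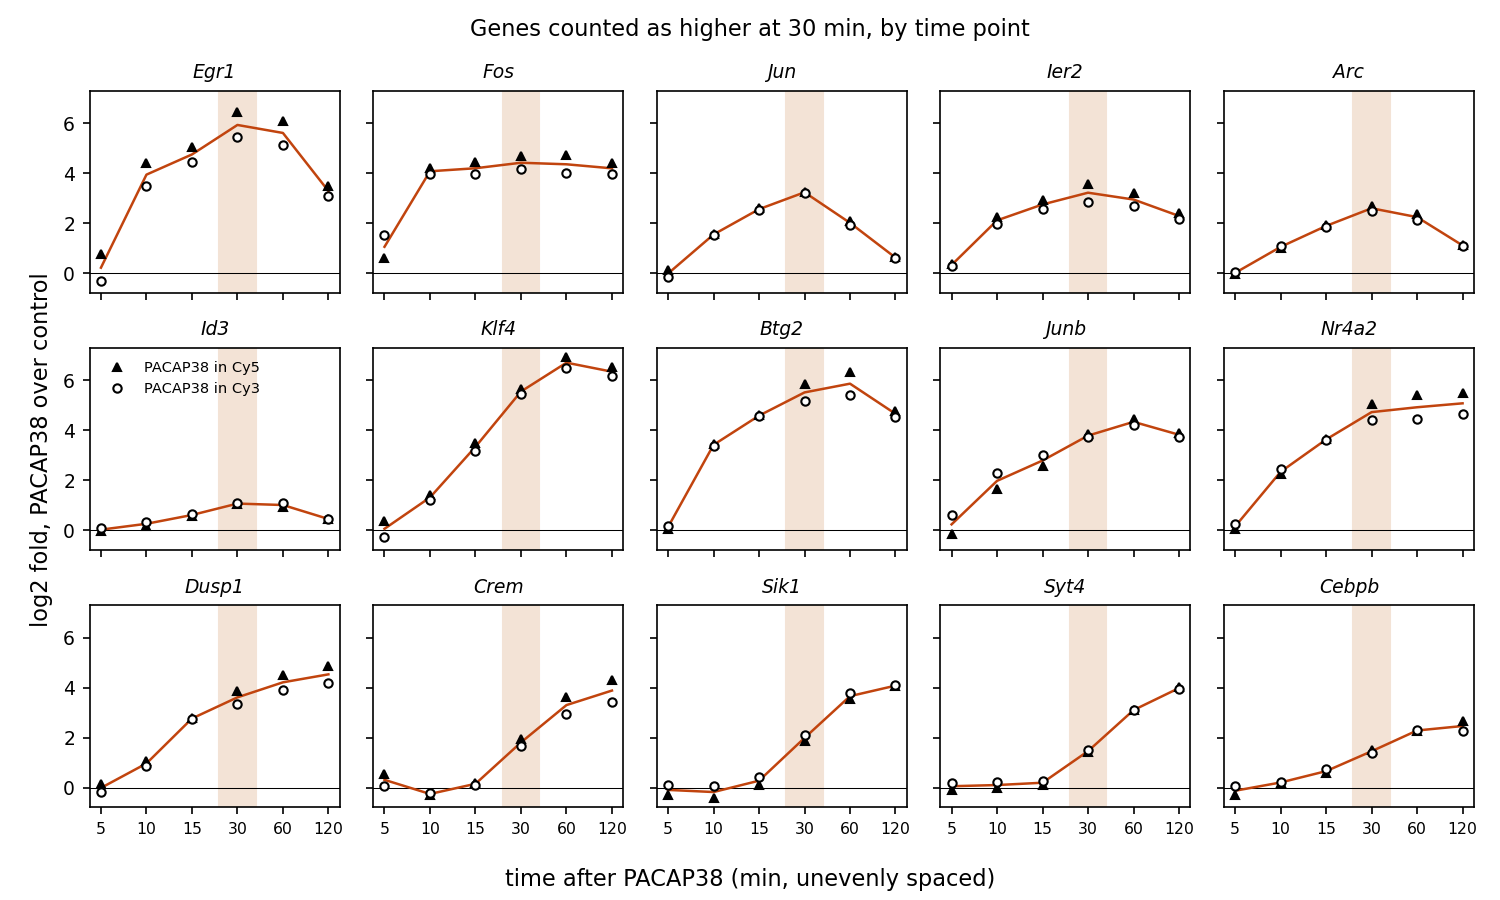
Log2 fold of PACAP38 over control at the 6 time points for 15 genes counted as higher at 30 min (shaded), with the value of each array (triangles, PACAP38 in Cy5, circles, PACAP38 in Cy3) and a line through their means. Egr1, Jun, Ier2, Arc and Id3 are highest at 30 min, though the Id3 arrays of 30 and 60 min overlap. Sik1, Syt4 and Crem go on to 16.9-, 15.8- and 14.8-fold at 120 min. Fos was not ranked, as it was dim in both RNAs at 5 min.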

How the data were processed

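RNA of PC12 cells was measured on Agilent 2-colour arrays, and the 2 dye-swapped arrays of 30 min were used, with the other 10 for the time course. The authors scanned the arrays and deposited processed Cy3 and Cy5 intensities, made by subtracting background, removing spatial trends and normalizing the dyes by LOWESS. Spots not above background carry a surrogate intensity. They also deposited mean and background intensities, flags, a spot p-value and a log10 ratio of Cy5 over Cy3. These log10 values, and the deposited table of ratios, were not turned for the dye swap. The file headers give Feature Extraction 12.0.3.1 and the submitters' processing notes 11.0.1.1.

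PACAP38 over control was computed from the processed intensities and turned by dye. Control spots and outlier spots (0.507% and 0.496% of spots per array) were left out, spots of a probe were averaged, and a probe was counted with PACAP38 at 2-fold or more, or at 0.5 or less, of the control and a spot p-value below 0.01 on both arrays. In a channel 45.1% and 44.3% of the spots were well above background on the array with PACAP38 in Cy5 and in Cy3. The number of arrays limits the precision, and with 1 replicate no test between groups was made. The signals behind the bounds were scaled with limma 3.58.1 in R 4.3.3 (loess within arrays, Aquantile between them), which also made the normexp alternatives, and other steps Python 3.11.15. Known folds were added on the 5 min arrays, alike on both, to probes well above background in both RNAs. There the rule recovered 0% of 50 probes at 1.5-fold, 82% at 2.5-fold and 100% at 4-fold. Probes with a dim RNA were not tried, so these rates do not cover them.

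Probe names come from the files, updated by RefSeq accession for 1599 of the 19268 probes that matched. Probe positions are on rn4, and promoters and spans are RefSeq's on GRCr8. Of several probes of a gene the brightest gives its value. Genes named are the 20 largest and 10 smallest folds with a name, counted members of 15 gene lists, 2 to 4 members of each list, and Ednrb and Agtr1b. Others are said to be chosen after their values were seen. Members and lists were chosen with earlier results of these data known. The proteome measurements of the study were not analysed here. Values of some listed genes are not reported here.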

Additional observations from a re-analysis of the deposited data

Results flagged for a closer look

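Lcmt2 was 2.29-fold higher at 30 min on both arrays (log2 folds of 1.19 and 1.2) and lower than the control at 120 min (-0.67 and -0.80, a mean of -0.73). It is named because it was counted at 30 min and passed 1.5-fold the other way at 120 min. That limit had to be met on both arrays, with spot p-values of the scanner software below 0.01. The difference between the time points was not tested, since each is 1 replicate and lies on another slide.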

How the results depend on the processing

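The counts depended on the limits and on the scaling of the signals. The normexp settings changed background correction, offset and dye scaling together, so no single step can be named. A fold limit of 1.5 gave 167 higher and 82 lower probes, and one of 3 gave 59 and 12 (83.1% higher). Without the p-value limit 130 were higher and 78 lower (62.5%). One array alone gave 306 to 370 higher and 274 to 311 lower probes (49.59 to 57.45%). Both RNAs well above background on both arrays left 77 and 16 (82.8%). Normexp with loess gave 50 and 2 (96.15%), with median centring 41 and 2 (95.35%), and gene names in place of probes 59 and 6 (90.77%). Counts stayed within 1.5 times under a p-value limit of 0.001 (96 and 34). The deposited ratios and the median of spots gave unchanged counts (102 and 42), but could hardly differ. The ratios hold the same processed signals, and only 4 counted probes had more than 1 spot. At a fold limit of 1.5 at the other time point, 3 higher probes were also counted at 5 min, and 16 and 13 lower ones at 15 and 120 min. The half-site in place of the full CRE gave 35 windows. LOC685619 had -0.17 on its other probe, against 1.58 on the one reported. The 65 genes counted on their brightest probe kept their direction under the other scalings and averages, but 34 had a fold smaller by over 1.5 times with normexp and loess and 35 with median centring. The causes were not tested.

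No paired analysis was possible because each time point has 1 pool of each group. Limits: the arrays repeat the same pools, so they show dye and spot error but not the spread between cultures. Signal over background leaves only a bound for 19 higher and 23 lower probes.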
